A study of Homo sapiens with 15 samples.

Results

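HCT116 cells, an established human colorectal carcinoma line, were exposed for 72 h either to an extract of oil production waste products (OPWPs) from Tuscany (TE) or to pure hydroxytyrosol (HTyr), both at 0.0154 mg/mL, and the 2 treatments were compared directly with each other. The comparison used the 3 TE and 3 HTyr libraries, 6 of the 15 libraries of the series, which were selected by the sample descriptions. Of 60664 genes in the table, 14899 entered the test, those at 1 TPM or more (a transcript abundance corrected for gene length and relative to the whole library) in 3 or more libraries. The other libraries came from 3 untreated cultures and from cells given extracts from Apulia (AE) or Sicily (SE), 3 each. The untreated level is given beside many of the differences, but not all. All groups are labelled wild type, and the line was bought from the ATCC. No dose, time or vehicle is labelled for the untreated cells. The equal dose is an equal mass, so the amount of HTyr that reached the cells with TE was not the same by design, and how much HTyr TE contains is not stated in those sources that were read. The series is 1 cell line at 1 dose and 1 time. The labels call the replicates biological, but do not say whether they were separate experiments. The p-values of single genes therefore measure the spread between libraries, which was estimated within the groups of all 15 and not from the 6 alone.

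HTyr is a small phenol with a catechol ring and the most abundant phenolic compound of olive mill waste, whereas an extract is a mixture in which it is accompanied by other olive phenols and by non-phenolic matter. Planar aromatic compounds can bind the aryl hydrocarbon receptor, a transcription factor that turns on CYP1A1, TIPARP and its own repressor AHRR. Catechols can also be oxidized to reactive quinones, which cells meet with the NFE2L2 antioxidant programme. Cells that fold too much protein in the endoplasmic reticulum raise chaperones such as HSPA5, and cells short of amino acids translate ATF4, which turns on genes such as CHAC1.

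The libraries carried the markers of an epithelial line. EPCAM was between 269.79 and 328.29 TPM and KRT8 between 1035 and 1168 TPM in the 6 libraries, and the summed level of 7 epithelial markers was 3141 to 3245 TPM with TE and 3154 to 3484 TPM with HTyr. All 6 endothelial markers, 6 of 7 fibroblast markers and 5 of 7 blood cell markers stayed under 1 TPM in all 15 libraries, and the exceptions were COL1A1, CD68 and HBA1. Spearman's correlation over the genes tested was 0.972 to 0.982 between replicates of TE or of HTyr and 0.970 to 0.981 between a TE and an HTyr library, given as a description across genes of libraries that share a cell line. In the sample titles the codes T and S are attached to Sicily and Tuscany, the reverse of the descriptions. The columns coded T were taken as TE, as the descriptions and the study's own table give them, and the values under the title codes stand in the closing section.

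Few genes were called different between TE and HTyr. A gene was called when the adjusted p (limma, Benjamini-Hochberg over all genes tested) was under 0.05 and the difference was more than 1.5-fold in either direction. By this rule 105 of 14899 genes (0.705%) differed, 66 (0.443%) higher and 39 (0.262%) lower with TE. By the same rule 1896 genes (12.7%) differed between TE and untreated cells, 1112 (7.46%) of them higher and 784 (5.26%) lower, and 2421 (16.2%) between HTyr and untreated cells, 1162 (7.8%) higher and 1259 (8.45%) lower, and these 2 comparisons share the untreated libraries. At any size of difference, 490 genes (3.29%) passed the adjusted p, 345 (2.32%) higher and 145 (0.973%) lower with TE. An unadjusted p under 0.05 was reached by 2925 genes (19.6%). The median difference over all genes was 0.075 on the log2 scale. The 95% interval of the difference lay within 1.5-fold in both directions for 10003 genes (67.1%), and for the others a difference of that size was not excluded by its interval. In bulk RNA a changed share of cells and a changed level per cell cannot be told apart. The 105 called genes were 84 protein coding genes, 15 lncRNAs, 1 snoRNA and 5 pseudogenes. In all 105 the 3 TE values lay entirely above or below the 3 HTyr values, which was also the case in 3751 of all genes tested (25.2%), with TE above in 18.4% and below in 6.73%. The split between directions depended on the scaling between libraries, since 33 genes were higher and 55 lower after median-ratio scaling, and 34 higher and 57 lower after quantile normalization. The number called also rested on each TE library and on HTyr replicate 3. It was 54, 56 and 55 without TE replicate 1, 2 or 3, and 63 without HTyr replicate 3. Without the third replicate of both it was 43. Without HTyr replicate 1 or 2 it was 107 and 77. Of the 105 genes, 46, 44, 46, 52, 31, 55 and 57 kept their call in these settings, in that order. Their signs could not change there, since the TE and HTyr values do not overlap. Fitted to the TE and HTyr libraries alone, the number was 27, of which 24 were among the 105.

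**Figure D1:**
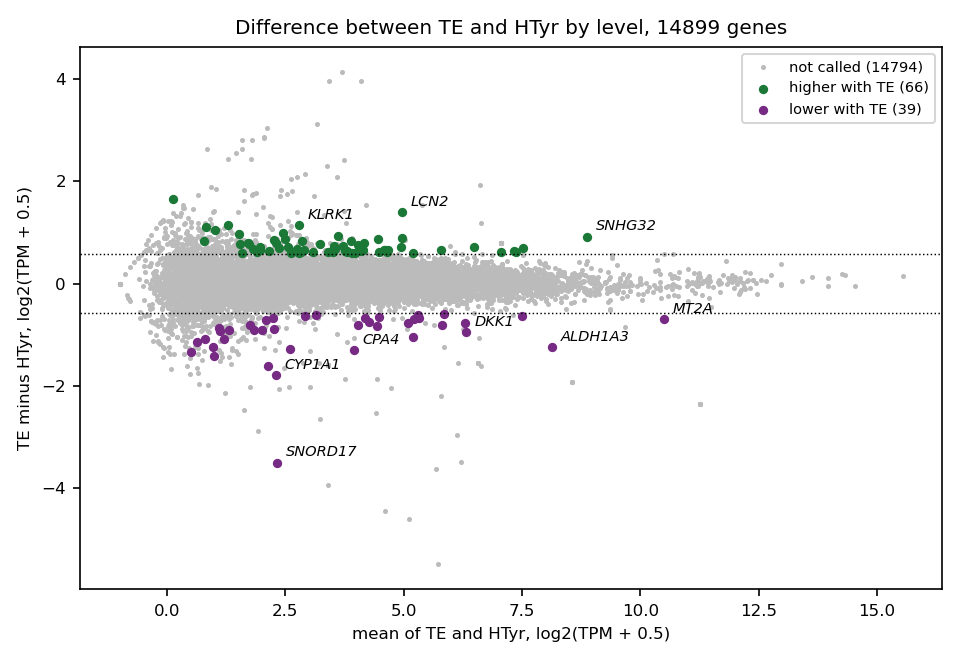
Log2 difference between TE and HTyr (vertical axis, log2(TPM + 0.5) scale) against the mean level of both treatments (horizontal axis) for the 14899 genes tested, with dotted lines at a 1.5-fold difference in each direction. The 66 genes higher with TE are green, the 39 lower ones are purple, and grey points beyond the dotted lines did not pass the adjusted p.

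The called genes were also compared with the untreated level. Of the 66 genes higher with TE, 31 fell with HTyr against untreated cells and were not called with TE, 15 rose with TE and were not called with HTyr, 2 fell with both, 1 rose with both and 17 were called in neither. Of the 39 genes lower with TE, 12 rose with HTyr and were not called with TE, 10 fell with TE and were not called with HTyr, 6 rose with both, 4 fell with both and 7 were called in neither. No called gene was called up with one treatment and down with the other (0 in limma with the fold threshold), but ALDH1A3, DHRS3 and KLRK1 passed the adjusted p in opposite directions at any size, and 5 genes passed an unadjusted p that way. The untreated mean lay between the 2 treatments in 30 of the 66 genes (45.5%) and in 20 of the 39 (51.3%), compared with 17.5% of all genes tested. Genes with a TE mean between the other 2 numbered 27 and 11, compared with 46.7% of all genes. These counts are a description, since the groups compared share libraries and the called genes were chosen for a wide gap between TE and HTyr. A wide gap leaves more room for an untreated mean inside it, so a higher share than among all genes follows in part from that choice.

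**Figure D2:**
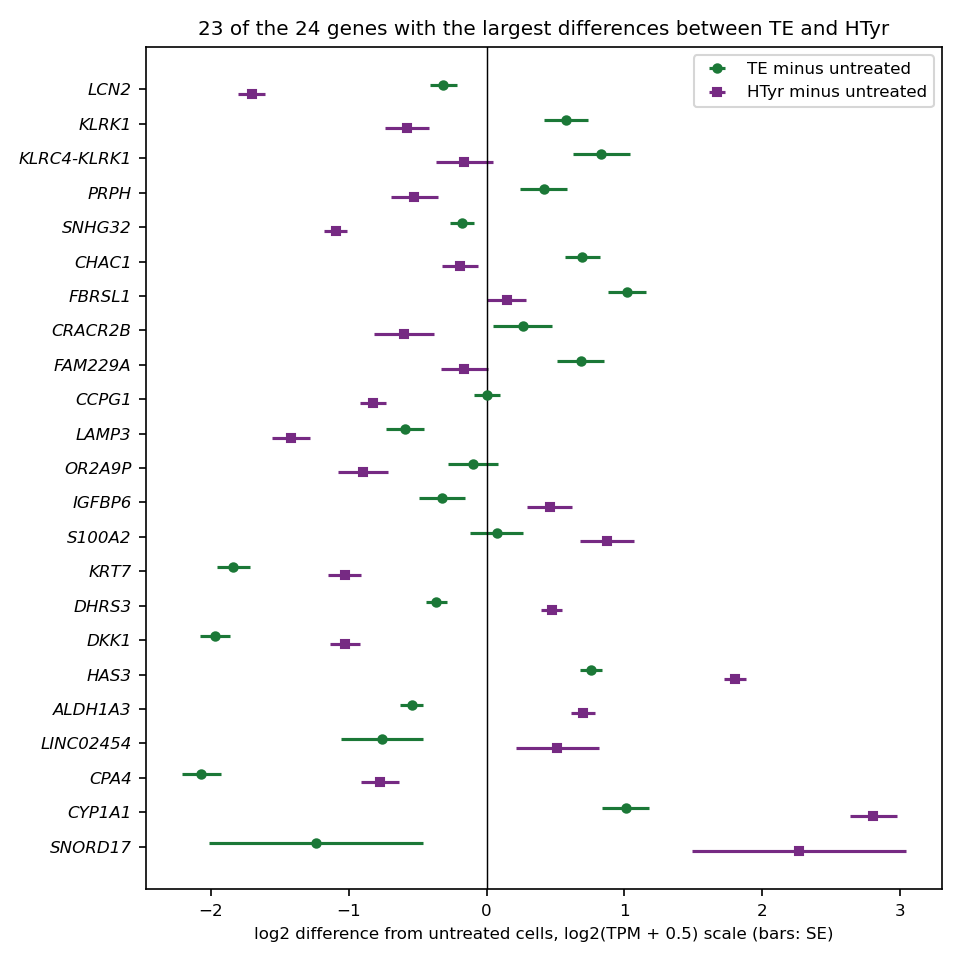
Log2 difference from untreated cells with TE (green circles) and with HTyr (purple squares) for 23 of the 24 genes with the largest called differences between TE and HTyr, with the SE of each. For CCPG1 the TE point lies at 0.00 and the HTyr point at -0.82, and for ALDH1A3 the points lie on opposite sides of 0, at -0.54 and 0.70.

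The aryl hydrocarbon receptor targets CYP1A1 and TIPARP were lower with TE than with HTyr. Their promoters, from 250 bases before to 50 after the start (RefSeq, GRCh38.p14), are shown because both hold the core of the receptor's response element, GCGTG on either strand, here in capitals. CYP1A1 has 1 match in the window chr15:74725479-74725778 on the minus strand, and TIPARP has 2 on the opposite strand, read as CACGC, in the window chr3:156674340-156674639 of the first of its 3 starts, with none at the other starts. The same core is found in 36.5% of the 35116 promoters of this length, so a match is a description and not a binding site.
CYP1A1: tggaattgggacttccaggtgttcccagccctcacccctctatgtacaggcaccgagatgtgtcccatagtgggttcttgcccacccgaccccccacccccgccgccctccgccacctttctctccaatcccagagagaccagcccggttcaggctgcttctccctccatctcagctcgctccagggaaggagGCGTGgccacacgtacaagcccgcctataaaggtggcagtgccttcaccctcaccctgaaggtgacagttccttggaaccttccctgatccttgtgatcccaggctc
TIPARP: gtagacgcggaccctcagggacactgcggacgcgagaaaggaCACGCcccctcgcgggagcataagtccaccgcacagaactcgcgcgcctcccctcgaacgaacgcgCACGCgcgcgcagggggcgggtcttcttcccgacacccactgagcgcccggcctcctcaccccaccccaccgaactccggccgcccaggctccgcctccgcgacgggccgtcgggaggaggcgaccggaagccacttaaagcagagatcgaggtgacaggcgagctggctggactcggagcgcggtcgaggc

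CYP1A1 encodes the cytochrome P450 that oxidizes aromatic compounds and is the classic readout of the receptor. It was at 1.69, 2.04 and 1.38 TPM in the TE libraries, 6.06, 7.18 and 8.20 TPM with HTyr and 0.39, 0.81 and 0.60 TPM in untreated cells. Thus both treatments stood above every untreated library, and every HTyr library stood above every TE library. The difference between TE and HTyr was -1.80 ± 0.17 (log2, SE; 95% interval -2.16 to -1.43; adjusted p = 0.000159). TIPARP, an ADP-ribosyltransferase that damps the receptor, was at 31.0, 36.9 and 25.1 TPM with TE, 47.1, 42.9 and 51.0 TPM with HTyr and 16.8, 22.3 and 19.2 TPM untreated. It followed the same order in every library, with a difference of -0.61 ± 0.13 (adjusted p = 0.0294). This call was lost without TE replicate 1 or 3 or HTyr replicate 1 or 3, where the difference was between -0.62 and -0.47 and the adjusted p between 0.062 and 0.0913.

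Among the 10 tested members of the receptor's list, these 2 were called lower, next to 0.262% of all genes, and none higher, with a list median of -0.25 compared with 0.075 over all genes. AHRR, the repressor, was at 2.52, 2.04 and 2.40 TPM with TE and at 6.39, 6.27 and 6.66 TPM with HTyr. These values did not overlap, and the untreated libraries were at 1.37, 1.94 and 0.07 TPM. The difference of -1.30 did not pass the test (adjusted p = 0.0722). CYP1B1, a related P450, was under 1 TPM in all 3 TE libraries and at 1.42, 1.23 and 1.23 TPM with HTyr, with a difference of -0.58 that also missed the threshold (adjusted p = 0.062). AHR itself gave a difference of 0.04, ARNT, its partner, of -0.16, and neither passed the test. NFE2L2, which is counted in this list as well, was higher with TE by 0.29 (adjusted p = 0.0348), a size under the fold threshold.

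ALDH1A3, DHRS3 and HAS3 were among the genes with the largest differences and were lower with TE. ALDH1A3, which makes retinoic acid from retinal, was at 165, 175 and 162 TPM with TE, 381, 387 and 422 TPM with HTyr and 227, 273 and 234 TPM untreated. The 3 groups did not overlap, and the untreated cells stood in the middle. TE lay below HTyr by -1.24 ± 0.08 (95% interval -1.42 to -1.06; adjusted p = 1.26e-05). Against untreated cells ALDH1A3 rose with HTyr (0.70), while the value with TE was -0.54, short of the fold threshold. DHRS3, a retinal reductase, was at 17.1, 13.97 and 14.3 TPM with TE, 26.4, 27.3 and 28.2 TPM with HTyr and 19.4, 19.0 and 20.3 TPM untreated, which is the same order as for ALDH1A3. Its difference was -0.84 ± 0.08 (adjusted p = 0.000155). HAS3, a hyaluronan synthase, was at 23.9, 21.9 and 25.2 TPM with TE, 46.4, 49.6 and 51.8 TPM with HTyr and 12.8, 13.4 and 15.2 TPM untreated. Here both treatments rose above untreated cells, by 0.76 and 1.80, and HTyr rose further (TE minus HTyr -1.04 ± 0.08; adjusted p = 1.90e-05).

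**Figure D3:**
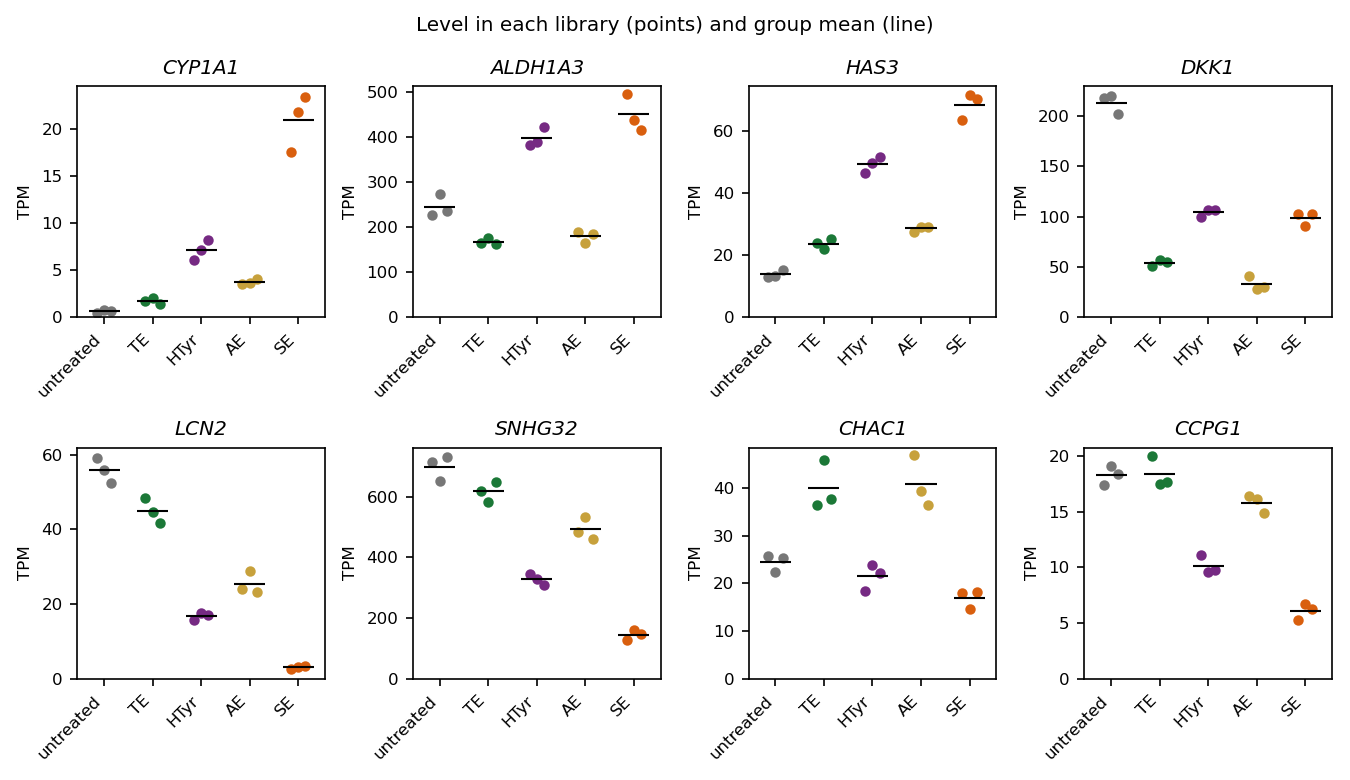
Level in TPM (vertical axes from 0) of 8 called genes in each of the 15 libraries (points) with the group mean (line), for untreated cells, TE, HTyr, AE and SE. CYP1A1, ALDH1A3, HAS3 and DKK1 were lower with TE than with HTyr and LCN2, SNHG32, CHAC1 and CCPG1 higher, with no overlap between the TE and HTyr points in any panel.

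A further group fell with both treatments or with TE, and stood lower with TE. CPA4, a carboxypeptidase, was at 8.34, 8.51 and 8.10 TPM with TE, 26.1, 21.0 and 17.2 TPM with HTyr and 39.1, 37.0 and 33.6 TPM untreated. The HTyr libraries were more spread than the TE libraries, but no group overlapped another, and the difference was -1.30 ± 0.14 (adjusted p = 0.000407). DKK1, a secreted inhibitor of WNT signalling, was at 51.1, 56.7 and 54.5 TPM with TE, 99.4, 107 and 107 TPM with HTyr and 218, 220 and 202 TPM untreated. It fell with both treatments, by -1.97 with TE and -1.03 with HTyr, and differed between them by -0.94 ± 0.11 (adjusted p = 0.000534). KRT7, a simple epithelial keratin, was at 42.9, 38.03 and 39.2 TPM with TE, 73.2, 68.8 and 69.6 TPM with HTyr and 139, 156 and 139 TPM untreated. It showed the same order as DKK1, with a difference of -0.81 ± 0.12 (adjusted p = 0.00357).

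Of the 10 keratins tested, KRT7 was the 1 called, next to 0.262% of all genes called lower, and the list median was -0.05. KRT19 (-0.51) and KRT80 (-0.40) passed the adjusted p at lower levels with TE, KRT23 (0.57) did so at a higher level, and KRT8 (0.02) and KRT18 (-0.02), the main pair of simple epithelia, differed little. FOSL1, an AP-1 subunit, was at 53.2, 67.4 and 53.4 TPM with TE and at 99.9, 106 and 91.4 TPM with HTyr, next to 93.7, 110 and 106 TPM untreated. The HTyr libraries overlapped the untreated ones and the TE libraries lay below both (-0.77 ± 0.11; adjusted p = 0.00318). SMAD3, which carries the TGF-beta signal to the nucleus, behaved alike: 28.9, 30.6 and 24.8 TPM with TE, 45.8, 44.1 and 46.6 TPM with HTyr and 45.7, 51.4 and 46.1 TPM untreated, a difference of -0.69 ± 0.08 (adjusted p = 0.000534). FOSL1 was the 1 called of 22 AP-1 and immediate early genes, and SMAD3 the 1 called of 21 genes of the TGF-beta list. Of all genes 0.262% were called lower, and the list medians were 0.13 and 0.14. BIRC3, an apoptosis inhibitor induced by NF-kB and 1 of 26 NF-kB targets tested, had means of 2.73 TPM with TE and 4.83 TPM with HTyr (-0.72; adjusted p = 0.0248), and it lost the call in 5 of 9 omissions of a single library (adjusted p 0.0558 to 0.0837).

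The metallothionein MT2A, a metal-binding protein, was at 1176, 928 and 1217 TPM with TE, 1659, 1870 and 1845 TPM with HTyr and 1229, 915 and 1338 TPM untreated. The TE libraries lay in the untreated range and the HTyr libraries above it, a difference of -0.70 ± 0.17 (adjusted p = 0.0414). The call was lost in 7 of 9 omissions of a single library, with the adjusted p up to 0.158 and the difference between -0.78 and -0.58. MT1E differed by -0.50 (adjusted p = 0.0294), MT1X by -0.58 (adjusted p = 0.11) and MT1F by -0.28 (adjusted p = 0.54). All 4 metallothioneins tested thus had lower means with TE. Of them 2 passed the adjusted p, next to 0.973% of all genes that passed it at lower levels with TE. MT2A was the 1 called of 9 metallothionein and zinc genes tested, next to 0.262% of all genes called lower. The median of this list was -0.10, compared with 0.075 over all genes. The zinc transporter SLC39A4 had the opposite sign, 0.39, without passing the test. S100A2 and IGFBP6, a calcium-binding protein and a binding protein of insulin-like growth factors, were lower with TE by -0.80 (adjusted p = 0.0414) and -0.78 (adjusted p = 0.0272), and these calls were lost in 8 and 4 of the 9 omissions (adjusted p up to 0.158 and 0.0994).

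The largest difference of all called genes was that of SNORD17, a small nucleolar RNA, which was listed at 0, 1.43 and 0 TPM with TE, 6.74, 11.6 and 7.47 TPM with HTyr and 1.93, 4.69 and 0 TPM untreated. The libraries were made from poly(A) RNA, which snoRNAs lack, and the difference of -3.50 ± 0.78 (adjusted p = 0.0309) lost its call in 5 of 9 omissions of a library, without TE replicate 1 or 3 or any 1 HTyr replicate (adjusted p 0.0569 to 0.103). LINC02454, a long noncoding RNA, had values of 5.36, 1.95 and 2.29 TPM with TE and 9.55, 6.43 and 7.59 TPM with HTyr. Its untreated values of 7.14, 5.09 and 4.04 TPM overlapped both groups. The difference of -1.27 (adjusted p = 0.0372) also lost its call in 5 of 9 omissions (adjusted p up to 0.143).

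LCN2, which encodes the iron-siderophore binder lipocalin 2, gave the largest difference in the other direction among genes with a mean of at least 5 TPM. It was at 48.4, 44.8 and 41.7 TPM with TE, 15.8, 17.7 and 16.98 TPM with HTyr and 59.2, 56.0 and 52.6 TPM untreated. The TE libraries lay just below the untreated range and the HTyr libraries far below both. TE exceeded HTyr by 1.39 ± 0.10 (95% interval 1.18 to 1.60; adjusted p = 1.26e-05). SLPI, a secreted protease inhibitor of mucosal surfaces, was at 15.1, 15.9 and 18.6 TPM with TE, 9.51, 10.3 and 11.6 TPM with HTyr and 17.03, 16.8 and 13.9 TPM untreated. TE overlapped the untreated cells and HTyr did not, and the difference of 0.63 ± 0.14 (adjusted p = 0.0326) lost its call without any 1 TE or HTyr replicate (adjusted p 0.0512 to 0.111). These were 2 of 7 secreted defense genes tested, next to 0.443% of all genes called higher, and the list median was 0.63, next to 0.075 over all genes. SERPINA3, an acute phase protease inhibitor, differed by 0.64 (adjusted p = 0.054), while S100P (-0.69) and WFDC2 (-0.92) had the opposite sign and did not pass the test.

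Of 31 genes of protein folding in the endoplasmic reticulum, 9 passed the adjusted p, all higher with TE than with HTyr. The promoter of HSPA5, the master chaperone of this compartment, is shown as the one among the called or named genes of this list with a match to the endoplasmic reticulum stress element, CCAAT and CCACG separated by 9 bases, in capitals (RefSeq, GRCh38.p14, chr9:125241294-125241593, minus strand). The element is found in 27 of 35116 promoters of this length (0.0769%), and no match was found in the windows of HYOU1 and SEL1L.
HSPA5: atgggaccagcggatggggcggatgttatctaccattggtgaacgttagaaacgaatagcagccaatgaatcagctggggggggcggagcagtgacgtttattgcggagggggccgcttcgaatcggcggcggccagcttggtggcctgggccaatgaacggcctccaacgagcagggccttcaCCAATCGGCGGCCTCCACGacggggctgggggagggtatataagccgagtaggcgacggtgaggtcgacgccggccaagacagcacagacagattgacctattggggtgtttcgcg

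HSPA5 was at 839, 756 and 811 TPM with TE, 555, 528 and 546 TPM with HTyr and 1940, 1600 and 1699 TPM untreated. It fell with both treatments and fell further with HTyr. The difference of 0.56 ± 0.06 passed the adjusted p (0.000534) but not the fold threshold. HYOU1, a large chaperone of the same compartment, was at 153, 163 and 162 TPM with TE, 108, 103.98 and 101 TPM with HTyr and 173, 180 and 173 TPM untreated. It fell with HTyr (-0.75), while the value with TE was -0.14, and TE exceeded HTyr by 0.61 ± 0.08 (adjusted p = 0.00107), which became 0.54 under median-ratio scaling and 0.58 under quantile normalization, below the fold threshold. SEL1L, part of the machinery that removes misfolded proteins, was at 28.7, 25.4 and 33.3 TPM with TE, 20.7, 16.3 and 17.7 TPM with HTyr and 45.2, 40.1 and 36.3 TPM untreated. All 3 groups were apart, with a difference of 0.66 ± 0.11 (adjusted p = 0.00817) that went to 0.56 without TE replicate 3 and to 0.58 under quantile normalization.

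Of the 31 genes of this list, 2 were called higher and none lower, with a median of 0.21, and 9 passed the adjusted p at any size, all of them higher with TE, next to 2.32% of all genes. Besides the 3 above these were HERPUD1 (0.42), DERL2 (0.43), P4HB (0.31), PDIA4 (0.26), DNAJB11 (0.26) and PDIA3 (0.21). In each of the 9 the HTyr mean was the lowest of untreated, TE and HTyr. The median stayed above 0 under the other scalings, at 0.14 with median ratios and 0.19 with quantiles. CCPG1, a receptor for autophagy of the endoplasmic reticulum, was at 20.0, 17.5 and 17.6 TPM with TE, 11.1, 9.59 and 9.77 TPM with HTyr and 17.4, 19.1 and 18.4 TPM untreated. TE lay within or above the untreated values, HTyr lay below both, and the difference was 0.83 ± 0.10 (adjusted p = 0.000534). LAMP3, a lysosomal membrane protein, was at 8.67 ± 0.14 TPM (SD, n = 3) with TE and 4.69 ± 0.49 TPM with HTyr, next to an untreated range of 12.6 to 14.1 TPM (0.83 ± 0.14; adjusted p = 0.00657). The autophagy and lysosome list had no called member among 33 and a median of 0.10, and PSAP (0.44) and CTSD (0.46), both lysosomal, were among those past the adjusted p.

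The ATF4 target CHAC1, which degrades glutathione, was at 36.4, 46.0 and 37.9 TPM with TE, 18.5, 23.9 and 22.1 TPM with HTyr and 25.8, 22.5 and 25.3 TPM untreated. It rose with TE against untreated cells (0.69) and was not called with HTyr (-0.19). TE exceeded HTyr by 0.89 ± 0.13 (adjusted p = 0.00308). NUPR1, a small stress protein of the nucleus, was at 3.03, 2.77 and 2.76 TPM with TE and 1.02, 0.73 and 1.35 TPM with HTyr, beside 1.35, 2.59 and 3.33 TPM untreated. The untreated range covered the TE values and reached the highest HTyr value, and the difference of 1.15 ± 0.26 (adjusted p = 0.0349) lost its call without any 1 TE or HTyr replicate (adjusted p 0.0512 to 0.114). These were the 2 of 33 ATF4 and amino acid response genes that were called, next to 0.443% of all genes called higher, with a list median of 0.18, next to 0.075 over all genes. ATF3 (0.56), DDIT4 (0.29) and AARS1 (0.24), respectively a stress transcription factor, an inhibitor of mTORC1 and a tRNA synthetase, also passed the adjusted p, which 2.32% of all genes passed in this direction, and no member passed it in the other direction.

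SNHG32, a host transcript of small nucleolar RNAs, was the most abundant gene called higher with TE. It was at 619, 583 and 649 TPM with TE, 344, 329 and 309 TPM with HTyr and 714, 651 and 731 TPM untreated. HTyr lay below both other groups, and TE exceeded it by 0.91 ± 0.08 (95% interval 0.73 to 1.09; adjusted p = 0.000155). Of the 15 host genes tested it was the only 1 called, next to 0.443% of all genes called higher, with a list median of 0.12. GAS5 (0.58), ZFAS1 (0.50) and SNHG29 (0.47) passed the adjusted p in the same direction, as did 2.32% of all genes. GAS5, a long noncoding RNA whose spliced form is degraded during translation, was at 2069, 1687 and 2165 TPM with TE and 1381, 1211 and 1343 TPM with HTyr. In this way its 2 groups did not overlap, and its untreated libraries were at 2623, 2057 and 2424 TPM.

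Of 65 genes of mitosis, 16 passed the adjusted p at any size, all lower with TE than with HTyr, next to 0.973% of all genes. None was called by limma with the fold threshold, 38 passed an unadjusted p of 0.05, next to 19.6% of all genes, and the list median was -0.24, also below 0 under median-ratio scaling (-0.31) and quantile normalization (-0.30). CCNB1, a B-type cyclin that activates the mitotic kinase, was at 120, 111 and 122 TPM with TE, 166, 165 and 169 TPM with HTyr and 49.1, 53.6 and 53.4 TPM untreated. Both treatments were far above untreated cells, and TE stood lower than HTyr (-0.50; adjusted p = 0.000515). CCNA2 (-0.54), CDC20 (-0.53), KIF20A (-0.53), CCNB2 (-0.49), PTTG1 (-0.49) and CDK1 (-0.45), which are cyclins, an activator of the anaphase-promoting complex, a kinesin, the securin and the mitotic kinase, showed the same order of means. Relative to untreated cells 39 of the 65 rose with TE, next to 7.46% of all genes, and 52 with HTyr, next to 7.8%. None fell with either, where 5.26% and 8.45% of all genes fell. Among 61 DNA replication and E2F targets none was called, and 15 passed an unadjusted p of 0.05, next to 19.6% of all genes. The median was 0.04, and 48 rose with TE and 46 with HTyr, next to the same 7.46% and 7.8% of all genes. RRM2, a subunit of ribonucleotide reductase, was lower with TE (-0.38; adjusted p = 0.0148), and RFC4, a clamp loader subunit, higher (0.24; adjusted p = 0.0366). The 27 p53 targets had no called member, with a median of -0.11. CDKN1A (-0.34), DDB2 (-0.40), BTG2 (-0.36) and TP53I3 (-0.57) passed the adjusted p, all lower with TE, next to 0.973% of all genes.

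**Figure D4:**
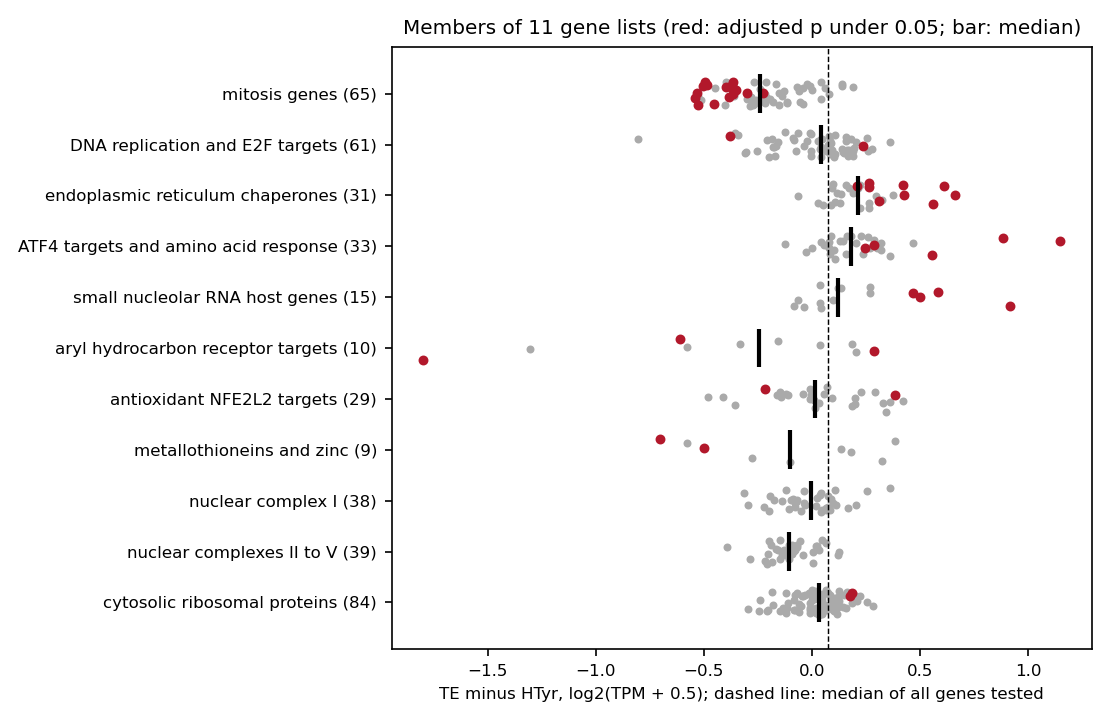
TE minus HTyr differences on the log2(TPM + 0.5) scale for the tested members of 11 gene lists (points, number of members in parentheses), with the list median (bar) and the median of all genes (dashed line). Red points passed the adjusted p at any size: in the mitosis list they lie below 0 and in the endoplasmic reticulum list above 0, and the respiratory complexes hold none.

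The study centres on mitochondrial genes, of which none was called between TE and HTyr. Of 38 nuclear genes of complex I and 39 of complexes II to V none passed the adjusted p in limma, 8 and 4 passed an unadjusted p of 0.05, next to 19.6% of all genes, the medians were -0.01 and -0.10, and the 95% interval lay within 1.5-fold for 37 and 36 of them. The same applied to 31 of 32 genes of mitochondrial biogenesis and dynamics (median 0.08; 7 past an unadjusted p) and to all 78 mitochondrial ribosome proteins (median 0.01; 11 past it). TFAM, which packs mitochondrial DNA, was at 34.3, 39.9 and 36.7 TPM with TE and 30.4, 31.4 and 40.5 TPM with HTyr, overlapping values with a difference of 0.12 (95% interval -0.09 to 0.34). PPARG was at 25.6, 23.5 and 26.1 TPM with TE and 22.5, 22.7 and 25.7 TPM with HTyr, again overlapping, below 35.1, 36.1 and 40.01 TPM untreated. Its difference was 0.08 (95% interval -0.11 to 0.28). The fusion genes MFN1 and MFN2 differed by 0.21 (0.06 to 0.36; adjusted p = 0.123) and 0.02 (-0.13 to 0.17), the fission gene MFF by 0.07 (-0.05 to 0.19), the import receptor TOMM20 by -0.06 (-0.24 to 0.11) and FOXJ3, a forkhead factor, by 0.13 (0.00 to 0.25; adjusted p = 0.243). PPARGC1A was listed at 0 in all 6 libraries and was not tested. Of 15 mitochondrially encoded genes MT-ND1 (0.44) and MT-RNR2 (0.38) passed the adjusted p, next to 2.32% of all genes higher with TE. The list median was 0.055. MT-ND1 had means of 4160 TPM with TE, 3056 TPM with HTyr and 2953 TPM untreated. MT-RNR2, a ribosomal RNA measured here after poly(A) capture, had means of 9141, 7034 and 14421 TPM in the same order, so it was below untreated cells with both treatments. The mitochondrially encoded share of TPM was 19.3 ± 1.98% (SD, n = 3) with TE and 17.9 ± 0.96% with HTyr, with an exact two-sided permutation p = 0.40, and that of cytosolic ribosomal proteins 25.1 ± 1.27% and 24.5 ± 0.92%, with an exact p = 0.50, where 0.10 is the smallest p that 3 against 3 allow.

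Antioxidant genes held no called member. NQO1, a quinone reductase and NFE2L2 target, was at 866, 855 and 803 TPM with TE, 700, 766 and 757 TPM with HTyr and 327, 328 and 316 TPM untreated. It rose with both treatments and the TE libraries were above the HTyr libraries, but the difference of 0.18 (95% interval 0.08 to 0.29) did not pass the adjusted p (0.0518). None of 29 NFE2L2 targets was called by limma, and their median was 0.02. An unadjusted p of 0.05 was passed by 12, next to 19.6% of all genes. UGDH (0.39) passed the adjusted p at a higher level with TE and TALDO1 (-0.22) at a lower one, next to 2.32% and 0.973% of all genes. Of 17 genes of phenol conjugation and export none was called, with 5 past an unadjusted p of 0.05, again next to 19.6% of all genes. UGDH is counted in this list as well.

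A few signalling genes were called singly, where 0.705% of all genes were called, 0.443% higher and 0.262% lower with TE. AXIN2, a feedback target of WNT signalling, was at 7.03, 6.64 and 7.19 TPM with TE, 4.13, 4.44 and 4.73 TPM with HTyr and 2.52, 3.72 and 2.95 TPM untreated. It was thus higher with TE (0.60 ± 0.11; adjusted p = 0.0171), while the WNT inhibitor DKK1 was lower, and these 2 were the called members of 15 WNT targets. The AXIN2 difference fell below the fold threshold or missed the adjusted p without TE replicate 1 or 3 or HTyr replicate 1 (0.55 to 0.59) and was 0.53 and 0.52 under median-ratio scaling and quantile normalization. DUSP6, the phosphatase that switches off ERK, was at 176, 240 and 185 TPM with TE and 136, 126 and 127 TPM with HTyr (0.61 ± 0.11; adjusted p = 0.0109). TE replicate 2 stood above the others, and without it the difference was 0.48. It was 0.54 under median-ratio scaling. With FOSL1 it was 1 of 2 called among 21 ERK feedback genes, in opposite directions. JAK2, a cytokine receptor kinase and the 1 called of 34 genes of the JAK, STAT and interferon list, was at 3.10 ± 0.54 TPM (SD, n = 3) with TE and 1.86 ± 0.19 TPM with HTyr (0.60; adjusted p = 0.037), and the call was lost in 5 of 9 omissions of a library (adjusted p 0.0609 to 0.147).

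Other genes with large differences belonged to no list. KLRK1, an activating receptor known from lymphocytes, was at 8.47, 8.30 and 10.2 TPM with TE, 4.43, 2.93 and 4.10 TPM with HTyr and 5.17, 5.89 and 6.60 TPM untreated (1.15 ± 0.16; adjusted p = 0.00232). The readthrough gene KLRC4-KLRK1 (0.99; adjusted p = 0.0248) overlaps it on chromosome 12, from 10372353 to 10410146 as against 10372353 to 10391874, so the reads of the pair cannot be told apart with certainty, and the readthrough call was lost in 5 of 9 omissions (adjusted p 0.0568 to 0.0988). FBRSL1 was at 24.4, 29.3 and 30.1 TPM with TE, 14.3, 12.9 and 18.1 TPM with HTyr and 14.7, 13.6 and 12.3 TPM untreated (0.87 ± 0.14; adjusted p = 0.00529). Here TE stood alone above the other 2 groups. PRPH, the neuronal intermediate filament peripherin, was at 16.2, 17.3 and 13.5 TPM with TE and 7.49, 7.56 and 8.75 TPM with HTyr (0.94; adjusted p = 0.0113), and lost the call without TE replicate 1 or 2 (adjusted p 0.0525 and 0.0538). FAM229A (0.85), CRACR2B (0.86) and the olfactory receptor pseudogene OR2A9P (0.80) were also higher with TE, and lost the call in 4, 8 and 6 of 9 omissions (adjusted p up to 0.0781, 0.153 and 0.108).

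The remaining lists held no gene called by limma. This was the case for 26 genes of cholesterol synthesis (median 0.15; 11 past an unadjusted p of 0.05), 15 of fatty acid synthesis (0.12; 7), 22 of fatty acid oxidation and PPAR targets (0.06; 3), 33 of glycolysis and hypoxia (0.03; 10) and 22 heat shock genes (0.11; 10), where the second value is the number past the unadjusted p, which 19.6% of all genes passed. It was also the case for 35 proteasome subunits (-0.03, with 1 past the unadjusted p), 84 cytosolic ribosomal proteins (0.03, with 15), 28 actin and SRF genes (0.02, with 9) and 28 genes of the BCL2 family and caspases (0.06, with 7). Single members past the adjusted p included GAPDH (-0.47), the glycolytic dehydrogenase, which was lower with TE at 2415 TPM compared with 3341 TPM, and the heat shock genes HSPA8 (0.36), DNAJA1 (0.34) and HSPA1B (0.58), which were higher with TE. HSPA1B has a near-identical copy, and its reads may be split between them. FDFT1 (0.25), which makes squalene, was higher with TE in the cholesterol list. The 14 replication-dependent histones tested had a median of -0.29, none passed the adjusted p, and 1 passed an unadjusted p of 0.05, next to 19.6% of all genes.

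Fewer of these genes separated TE from AE than from SE. Of the 105 genes, 3 (CYP1A1, DKK1 and LCN2) were also called between TE and AE, where 13 of all genes tested were called, and 62 between TE and SE, where 1246 were called. CYP1A1 was lower with TE than with AE (-0.97; adjusted p = 0.0337) and SE (-3.29; adjusted p = 4.88e-08), so that its mean with TE, 1.70 TPM, was the lowest of the 4 treatments. LCN2 was higher with TE than with AE (0.82; adjusted p = 0.00255) and SE (3.69; adjusted p = 7.39e-11). DKK1 was higher with TE than with AE (0.72; adjusted p = 0.0123) and lower than with SE (-0.86; adjusted p = 5.50e-05). These comparisons share the TE libraries with the one against HTyr and are given side by side.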

How the data were processed

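RNA of HCT116 cells was sequenced after poly(A) capture (TruSeq stranded mRNA kit). Reads were clipped and trimmed by the authors, aligned with STAR (GRCh38), and turned by RSEM into abundances of Ensembl genes. The sources used here name no versions of STAR or RSEM. TPM were deposited, made by the authors with RSEM, rounded to 2 decimals and not scaled between libraries. The number of reads behind a value is unknown, since TPM drop it, and intervals for counting error were not possible. No source says whether counting used strand, so overlapping antisense genes are uncertain.

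Values were taken as log2(TPM + 0.5), on which a fold change understates the change of low genes, for genes that reached 1 TPM in 3 or more of the 15 libraries. The means of 5 groups were fitted to the 15 libraries with limma 3.58.1 in R 4.3.3 (moderated test, mean-variance trend, 10 residual degrees of freedom), and p-values were adjusted by Benjamini-Hochberg over 14899 genes. Shares of TPM were compared by exact permutation. In simulated data, genes were changed between TE and HTyr by known amounts on the log2 scale. Of 40 raised by 1 in TE, 80% were called, of 40 lowered by 1, 70%, and of 40 raised by 0.7, 52.5%. Among the unchanged genes of the 14899, 4 were called. Noise was drawn independently for each gene and library, so effects shared within a library or brought by scaling were not covered.

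The comparison, the 50 gene lists and the tests were chosen with earlier results of these data known. Named genes were the 12 largest called differences in each direction with no overlap and a group mean of at least 5 TPM, up to 3 called members of each list by adjusted p and up to 2 against its main direction, and 12 genes named in any case. Called genes in opposite directions against untreated cells were also to be named, and there were none. Some genes that this rule or the lists give are not reported here. List members past the adjusted p alone, and AHRR, CYP1B1, SERPINA3 and other members given for a list's range, were chosen after their values were seen. Gene symbols, gene types and coordinates came from a separate GENCODE annotation (GRCh38), matched by gene identifier, and can differ from the gene models that the authors used. Of 105 called genes, 71 matched a RefSeq promoter. Alternatives covered pseudocounts, filters, scaling, libraries left out, the samples fitted, a replicate block, array weights, the trend, a fold test, GC content with length, and the column codes in the titles. Leaving out the third replicate of both treatments was added after seeing the data.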

Additional observations from a re-analysis of the deposited data

How the results depend on the processing

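Of 36 named genes that were called, 10 (CYP1A1, CPA4, ALDH1A3, HAS3, DKK1, DHRS3, SMAD3, CCPG1, SNHG32 and LCN2) kept their call in all 23 alternatives other than the fold test and the title codes. The other 26 lost it in 1 to 16 of the 23. None changed sign, which was fixed in advance where libraries were left out, since the TE and HTyr values of called genes do not overlap. HSPA5 passed the fold threshold with quantile normalization (0.61), without mitochondrially encoded genes (0.59) and without TE replicate 2 (0.60).

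The number of genes called was 105, with 66 higher and 39 lower. It was 63 (37 higher) with no filter, 27 (14 and 13, 9 list members) with the TE and HTyr libraries alone, 63 (39 and 24) with TE, HTyr and untreated libraries, and 43 (24 and 19, 8 list members) without the third replicate of both treatments. A limma test against the 1.5-fold threshold called 3 (1 and 2, 2 list members), 227 between TE and untreated cells and 346 between HTyr and untreated cells. Scaling by median ratios left 33 and quantile normalization 34 higher. Array weights gave 144. Over the omissions of single libraries the count ran from 54 to 107, with 29 to 78 higher, 22 to 39 lower and 11 to 19 list members called. Other numbers of genes or libraries enter some of these fits, and otherwise the cause was not tested.

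The replicate block gave 85 genes, 52 higher and 33 lower. Deviations from the group means correlated at 0.089, 0.094 and 0.263 between TE and HTyr libraries of the same number, and not every library correlated best with its own number, so that the numbers were not taken as pairs.

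With the columns taken by the codes in the titles, 1096 genes were called (741 higher, 355 lower; 212 list members), 4168 against untreated cells, and the ribosomal share differed by -2.83 percentage points. The difference was then 0.18 for ALDH1A3, 0.017 for BIRC3, -0.70 for CCPG1, -0.33 for CHAC1, 1.49 for CYP1A1, -0.10 for DUSP6, 0.47 for HAS3, -0.27 for HYOU1, -0.10 for KLRC4-KLRK1, -1.01 for LAMP3, -2.30 for LCN2, -0.12 for NUPR1, -1.06 for OR2A9P, -1.49 for PRPH, 0.085 for S100A2, -0.15 for SEL1L, -1.74 for SLPI, -1.18 for SNHG32 and 0.63 for TIPARP, each with the sign opposite to the main value, with other libraries standing for TE. HSPA5, which was not past the fold threshold in either case, went from 0.56 to -0.42 (adjusted p = 0.000329), and PPARG from 0.08 to -0.17.

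The paper gives an average number of fragments per sample, but the depth of each library is unknown. TPM are shares of a library, so a change in total RNA per cell could not be seen.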

Other observations

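Genes called outside the lists were chosen here after their values were seen. NFE2L1, the factor that restores proteasome genes, had means of 195 TPM with TE, 125 TPM with HTyr and 179 TPM untreated (0.63), while none of 35 proteasome subunits was called. RBCK1, a subunit of the linear ubiquitin ligase, was at 226 TPM with TE and 139 TPM with HTyr (0.70), beside 252 TPM untreated. CHPF, which extends chondroitin chains, was at 112 TPM with TE, 67.8 TPM with HTyr and 73.9 TPM untreated (0.72), so that TE stood alone. TIA1, an RNA-binding protein of stress granules, was at 66.4 TPM with TE and 42.6 TPM with HTyr (0.65).

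In the other direction ATOX1, a copper chaperone, was at 142 TPM with TE, 222 TPM with HTyr and 68.4 TPM untreated (-0.64), higher than untreated with both and lower with TE than with HTyr. CYTOR, a long noncoding RNA, was at 30.1 TPM with TE, 48.6 TPM with HTyr and 66.6 TPM untreated (-0.68). SERPINB5, a serpin of epithelial cells, was at 16.8 TPM with TE, close to 16.3 TPM untreated, and at 26.7 TPM with HTyr (-0.66). INHBE, an activin subunit gene, was unlike these higher with TE, at 1.95 TPM with TE and 0.59 TPM with HTyr, beside 0.373 TPM untreated (1.10). At this level 2 decimals of TPM and an unknown number of reads limit the precision.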
